A study of Mus musculus with 24 samples.

Results

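The genes described here are the enzymes that write and erase marks on histones and DNA, together with the CBX proteins that bind methylated histones. They were chosen by symbol among protein-coding genes and number 95 of the 45792 genes in the deposited count table. They comprise 18 lysine methyltransferases (Kmt2, Kmt5, Setd and Ehmt genes), 18 lysine demethylases (Kdm), 14 PRDM proteins, 11 histone deacetylases (Hdac), 9 acetyltransferases (Kat genes, Crebbp and Ep300), 7 sirtuins and 5 DNA methyltransferases. The others are 5 Polycomb CBX genes, 3 HP1 genes (Cbx1, Cbx3 and Cbx5), 3 TET dioxygenases and the 2 PRC2 methyltransferases Ezh1 and Ezh2. Messenger RNA was sequenced in cortical neurons taken from mouse embryos at E16.5 and grown for 12 days. The knockout neurons (KO, H2BE-KO/mCherry-KI) lack the histone variant H2BE and carry an mCherry reporter, and the other neurons are wild type (WT). Within each genotype the groups are untreated control neurons, neurons given BDNF for 30 min and neurons given BDNF for 24 h, with 4 biological replicates each and 24 libraries in all. A code in the library descriptions ties the 3 libraries of a replicate to 1 culture, so there were 4 KO and 4 WT cultures.

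Marks on histone tails are placed by methyltransferases and acetyltransferases and removed by demethylases, deacetylases and sirtuins. Polycomb repressive complex PRC2 methylates histone H3 through EZH1 or EZH2, canonical PRC1 reads that mark through a CBX subunit such as CBX2, CBX6, CBX7 or CBX8, and HP1 proteins read another repressive H3 mark. DNMT enzymes methylate DNA and TET enzymes oxidise that methylation. In neurons many of these proteins take part in gene regulation by activity, and the growth factor BDNF acts through its receptor TrkB and kinase cascades that phosphorylate CREB, a factor that binds the cyclic AMP response element (CRE).

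Library totals ran from 19780486 to 62135270 counts. Expression is given as CPM, the counts of a gene scaled to a common library size, with TMM factors that correct for differences in library composition. Of the 10 neuron markers examined all were detected, summing to 6372 to 8186 CPM over the libraries, against 181 to 628 CPM for 8 astrocyte markers and 0.441 to 3.16 CPM for 6 microglial markers. Counts assigned to the H2BE gene, Hist2h2be, were 49.96 to 63.1 CPM in 11 KO libraries and 3.15 to 5.83 CPM in WT libraries. A count per gene does not show which part of the altered allele the reads came from, so it is no check of the loss of the protein. The library labelled KO 24 h replicate 4 stood between the genotypes at 21.2 CPM, and its Y-linked reads went against the other libraries of its culture. Mitochondrial genes held 10.9% to 21.7% of the counts in the 3 libraries of KO culture 4, 7.52% to 9.34% in KO culture 3 and 4.18% to 6.4% in all others. KO 30 min replicate 3 was the shallowest library, with counts for 15323 genes. The libraries of KO culture 4 and KO 30 min replicate 3 are called the libraries that stand apart, and the comparisons that change without them are given both ways. In such bulk samples fewer cells of a type and less RNA per cell cannot be told apart.

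The sequence shown first is the promoter of Cbx8, the member whose BDNF response differed between the genotypes past the threshold. The window covers 250 bases before and 50 bases after the start site in RefSeq on GRCm38.p6, chr11:119040864-119041163, minus strand, written 5′ to 3′. Capitals mark the full palindromic CRE.

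Cbx8: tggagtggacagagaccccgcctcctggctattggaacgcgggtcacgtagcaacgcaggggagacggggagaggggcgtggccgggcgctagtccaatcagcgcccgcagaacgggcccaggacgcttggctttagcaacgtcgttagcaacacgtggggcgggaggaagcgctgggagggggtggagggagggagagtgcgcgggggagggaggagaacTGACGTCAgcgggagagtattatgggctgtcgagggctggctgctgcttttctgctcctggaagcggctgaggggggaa

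The CRE, TGACGTCA, spans bases 222 to 229 of the window and begins 29 bases before the RefSeq start site. The GENCODE gene of Cbx8 begins farther upstream, at 119040969, so by that annotation the element lies inside the gene. The same letters occur on either strand in 507 of 27025 mouse promoter windows of this length (1.88%) and in 1 of the 76 members with a window in the table (1.32%), namely Cbx8. The shorter core TGACG, which the full element contains, occurs in 21.0% of all windows and in 23 of the 76. No AP-1 site (TGANTCA), EGR site (GCGTGGGCG or GCGGGGGCG), CArG box or TATA box (TATAAA) was found in the Cbx8 window on either strand. These matches describe the letters only.

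Levels per kilobase of exon, averaged over the 24 libraries, gave the order of the members. The HP1 gene Cbx5 led with 32.8 CPM per kb, followed by the deacetylases Hdac5 (31.9), Hdac2 (31.8), Hdac11 (26.9) and Hdac3 (26.7) CPM per kb. Hdac5 is a class IIa deacetylase that moves between nucleus and cytoplasm with activity, and Hdac2 and Hdac3 are class I enzymes of nuclear corepressor complexes. Neighbours in this order, such as Hdac5 and Hdac2, lie closer than the spread between libraries, which was 23.9% and 24.97% of their mean. The highest members of the other classes were the demethylase Kdm1a (26.2 CPM per kb), the methyltransferase Ehmt2 (24.97), Cbx6 (23.4), the de novo DNA methyltransferase Dnmt3a (21.8), the acetyltransferase Kat2a (21.1), Sirt2 (12.2), Prdm4 (11.4), Tet3 (7.84) and Ezh1 (4.42). Between the PRC2 methyltransferases, Ezh1, the form known from resting cells, stood at 4.42 CPM per kb, against 0.577 CPM per kb for Ezh2, the form known from dividing cells. Cbx2 (0.364), Dnmt3b (0.0931) and Dnmt3l (0.0573 CPM per kb) were near the bottom. Of the 95 members 90 had enough reads to be tested. Prdm1, Prdm6, Prdm13, Prdm14 and Dnmt3c did not, with 4 to 54 counts each summed over all libraries.

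At 30 min of BDNF the member called changed was, in WT neurons, Cbx8, a CBX subunit of canonical PRC1. A fit with the culture as a block called 2 members in WT at this time, Cbx8 among them, where 0.584% of all tested genes were called. Cbx8 stood at 28.9, 29.9, 28.2 and 42.9 CPM in WT cultures after 30 min, against 12.2, 12.3, 16.2 and 13.6 CPM in WT control cultures. All treated WT libraries lay above all WT controls. In KO cultures the gene stood at 16.3, 18.2, 14.4 and 11.7 CPM after 30 min, against 16.49, 15.2, 14.7 and 14.2 CPM in KO controls, and the groups overlapped. The log2 fold change was 1.26 ± 0.15 (SE, n = 4 libraries a group) in WT, with an adjusted p of 1.69e-05 by the quasi-likelihood test of edgeR with Benjamini-Hochberg adjustment over 16777 genes. In KO it was 0.00 ± 0.15 (adjusted p = 1). An adjusted p under 0.05 is called a change below. The call in WT compares with 0.37% of all tested genes called in this contrast. In KO at 30 min no member was called by edgeR or DESeq2, where 0.125% of all tested genes were called. An unadjusted p under 0.05 by edgeR was found for 3 of 90 members and for 722 of all 16777 genes tested.

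The KO response of Cbx8 at 30 min was smaller than the WT response by 1.25 ± 0.22 on the log2 scale (adjusted p = 0.0198, edgeR quasi-likelihood test), a contrast in which 0.0477% of tested genes were called, 1 member among them. With the culture as a block the difference was -1.25 ± 0.18 (adjusted p = 0.00361). Per culture, the log2 response was -0.02, 0.26, -0.03 and -0.28 in KO and 1.25, 1.28, 0.79 and 1.65 in WT, so every WT culture lay above every KO culture. Leaving out the 3 libraries of KO culture 4 and replicate 3 of the KO 30 min group, the difference was -1.09 ± 0.23 with an adjusted p of 0.134. The call was also lost in 8 of the 16 fits that omitted a single library (adjusted p over all 16 of 0.0157 to 0.108). The libraries omitted in those 8 were controls 1, 2 and 3 and 30 min libraries 3 and 4 of KO, and controls 1 and 2 and 30 min library 4 of WT. After 24 h Cbx8 was back at 14.2, 15.5, 13.1 and 15.6 CPM in KO and 11.3, 16.7, 15.2 and 16.03 CPM in WT, where no comparison passed the test. The direct comparison of KO with WT at 30 min gave a log2 fold change of -1.10 ± 0.15 (adjusted p = 2.03e-05). It shares the WT 30 min libraries with the response in WT.

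Cbx8 lies on chromosome 11 (119036305 to 119040969, minus strand, GENCODE genes on mm10), close to another CBX gene of PRC1, Cbx2 (119022962 to 119031270, plus strand). Cbx2 was rare: it had 1.08, 1.015, 0.103 and 0.632 CPM in KO and 3.41, 3.15, 2.32 and 2.63 CPM in WT after 30 min, with no response to BDNF called at that time in either genotype. Some members overlap other genes: exon bases are shared with a gene on the opposite strand by 32 of the 95 members, among them Hdac4, Hdac11, Prdm8, Kmt2e, Kmt5b and Sirt3, and with a gene on the same strand by 7. Reads of such partners cannot be told apart where the strand setting of the counting is unknown.

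**Figure D1:**
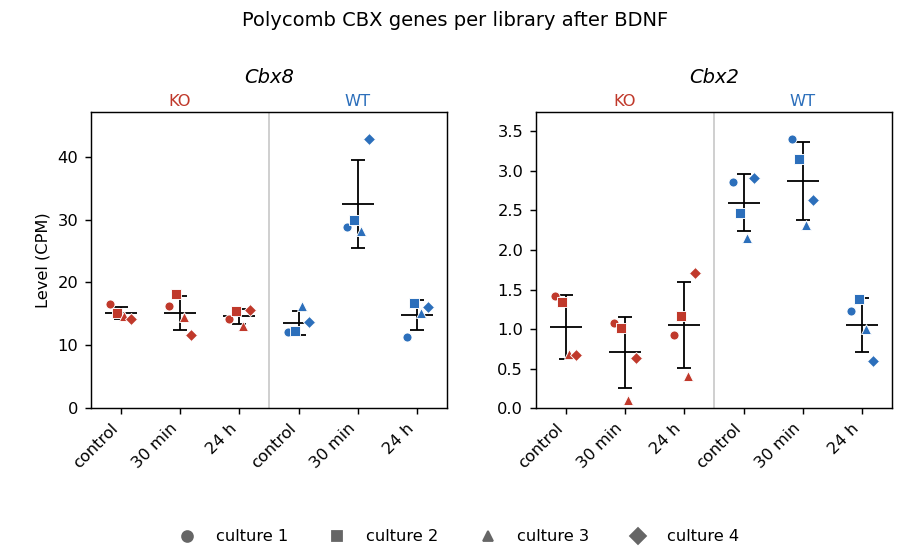
Levels in CPM of the Polycomb CBX genes Cbx8 and Cbx2 in each library (points, marker by culture), with the group mean and SD in black; KO groups are left of WT groups. Cbx8 stands at 28.2 to 42.9 CPM in WT neurons after 30 min of BDNF and at 11.3 to 18.2 CPM in every other group, while Cbx2 falls to 0.593 to 1.378 CPM in WT after 24 h.

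The genes whose log2 CPM followed Cbx8 most closely over the 24 libraries were Pim3 (Pearson r = 0.932), Tob2 (0.913), Ppp1r10 (0.898), Ccno (0.884) and Gadd45b (r = 0.883). These correlations describe libraries that share cultures and treatment. The WT log2 response at 30 min was 1.12 for Pim3, which encodes a serine/threonine kinase, 1.29 for Tob2 and 2.88 for Gadd45b, a stress and activity gene linked to DNA demethylation. The KO log2 response was 0.25 for Pim3, 0.42 for Tob2 and 0.51 for Gadd45b. A high WT and a low KO value at 30 min is part of what likeness to Cbx8 selects, so these responses are a description. Gadd45b was also higher in KO than in WT controls, by a log2 fold change of 0.71 ± 0.26 (adjusted p = 0.0489, edgeR).

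Other members known to respond to neuronal activity moved less at 30 min. The H3 demethylase gene Kdm6b had a log2 response of 0.06 ± 0.15 in KO and 0.31 ± 0.15 in WT, neither called. The deacetylase gene Sirt1, whose protein uses NAD, stood at 18.9, 15.8, 16.4 and 18.4 CPM in WT after 30 min, against 13.5, 14.5, 11.9 and 14 CPM in WT controls. Those groups did not overlap, but the log2 response of 0.37 ± 0.17 was not called (adjusted p = 1). The coactivator acetyltransferases that bind CREB, Crebbp and Ep300, had log2 responses between -0.10 and 0.03 at 30 min in both genotypes, with SEs of 0.11 to 0.12.

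After 24 h of BDNF 15 members changed in WT neurons, 3 higher and 12 lower, which is 16.7% of the members tested against 18.7% of all tested genes (9.55% higher and 9.13% lower). The share is near that of all genes, and without WT 24 h replicate 1 or 3 the count was 9. The calls of Kdm7a, Kmt5a, Hdac10, Tet1, Hdac11, Ezh1 and Kdm2b held in each fit without a single library. The largest rise was that of Kdm7a, a demethylase of repressive H3 marks, with 22.0, 19.4, 25.8 and 18.4 CPM in WT after 24 h, against 11.5, 13.6, 10.2 and 11.4 CPM in WT controls. All treated libraries lay above all controls, and the log2 fold change was 0.87 ± 0.13 (adjusted p = 4.18e-05, edgeR). The DNA demethylating enzyme Tet3 rose by 0.48 ± 0.14 and Kmt5a, which places the first methyl group on histone H4 lysine, by 0.40 ± 0.10 on the log2 scale. The largest fall above 1 CPM was that of Cbx2, with 1.22, 1.378, 1.001 and 0.593 CPM in WT after 24 h, against 2.86, 2.46, 2.15 and 2.92 CPM in WT controls. Its log2 fold change was -1.31 ± 0.43 (adjusted p = 0.0347), and no treated library reached a control. The Cbx2 call was lost in 6 of 8 fits without a single library (adjusted p of 0.0452 to 0.108 by edgeR).

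Among the deacetylases 3 of 11 fell in WT at 24 h and none rose. Hdac10, a class IIb enzyme known as a polyamine deacetylase, stood at 6.37, 6.58, 6.21 and 5.6 CPM after 24 h, against 12.4, 12.1, 12.7 and 12.4 CPM in controls. The groups were far apart, with a log2 fold change of -1.003 ± 0.15 (adjusted p = 5.06e-05, edgeR). Hdac11, the class IV deacetylase, fell by 0.69 ± 0.15 and Hdac7, a class IIa enzyme, fell by 0.49 ± 0.16 on the log2 scale. Ezh1 stood at 26.5, 25.2, 27.9 and 25.3 CPM in WT after 24 h, against 41.6, 40.6, 46.9 and 39.9 CPM in WT controls, a log2 fold change of -0.69 ± 0.13 (adjusted p = 0.000641). Tet1, which encodes another TET enzyme, went the other way from Tet3 and fell by 0.75 ± 0.19 on the log2 scale. The other falls were those of Sirt4 (-0.63), the CpG island demethylase Kdm2b (-0.63), Prdm8 (-0.61), Kmt2e (-0.41), Kdm1b (-0.39) and the HP1 gene Cbx5 (-0.26), each as a log2 fold change.

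In KO neurons 5 members changed after 24 h, 1 higher and 4 lower, which is 5.56% of the members tested against 5.61% of all tested genes (2.91% higher and 2.7% lower). Tet3 stood at 178, 199, 156 and 131 CPM in KO after 24 h, against 140, 133, 124 and 78.5 CPM in KO controls. Its log2 fold change of 0.49 ± 0.14 (adjusted p = 0.0436, edgeR) was about that in WT, although replicate 4 of the treated group lay within the range of the controls. Tet1 stood at 28.5, 31.9, 34.2 and 24.96 CPM after 24 h, against 43.6, 51.2, 51.7 and 39.9 CPM in KO controls, a log2 fold change of -0.64 ± 0.19 (adjusted p = 0.0499). Every treated library was below every control. Hdac11 fell by 0.51 ± 0.15 and Cbx7, another CBX subunit of PRC1, fell by 0.81 ± 0.23 on the log2 scale. Dnmt3b, a de novo DNA methyltransferase, was called lower at 0.268, 0.141, 0.173 and 0.342 CPM after 24 h, against 0.542, 0.412, 0.815 and 1.16 CPM in KO controls. These are few reads. Without the library labelled KO 24 h replicate 4, 3 members were called (1 higher, 2 lower), and leaving out any other library of these groups left 0 to 2, so each of these calls depended on single libraries. Without the libraries that stand apart, the falls of Hdac11 (-0.35 ± 0.12, adjusted p = 0.0664) and Cbx7 (-0.63 ± 0.25, adjusted p = 0.134) were no longer called, while those of Ezh1 (-0.35), Kdm2b (-0.48) and Prdm8 (-0.77 on the log2 scale) were.

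With the culture as a block, 15 members were called in KO after 24 h (7 higher, 8 lower) and 27 in WT (8 higher, 19 lower), against 16.9% and 31.6% of all tested genes. The calls this added in KO were Dnmt1 (0.38), Kdm7a (0.40), Kmt2a (0.305), Kdm2a (0.29), Kmt5a (0.27) and Kat7 (0.23), higher, and Prdm8 (-0.62), Dnmt3a (-0.23), Ehmt2 (-0.20) and Setd7 (-0.165), lower, as log2 fold changes with adjusted p of 0.00115 to 0.0472 by edgeR. Those added in WT included Kmt2a (0.29), Dnmt1 (0.25), Setd7 (0.21) and Kat7 (0.17), higher, and Setd1b (-0.50), Cbx7 (-0.48), Kat6b (-0.36), Dnmt3a (-0.29), Ehmt2 (-0.27), Prdm11 (-0.27) and Hdac5 (-0.24), lower, on the same scale, with adjusted p of 0.000569 to 0.0436. Per culture, Tet1 gave log2 responses of -0.61, -0.68, -0.60 and -0.67 in KO and -0.68, -0.98, -0.62 and -0.74 in WT. Tet3 gave 0.35, 0.58, 0.34 and 0.74 in KO and 0.38, 0.54, 0.68 and 0.31 in WT on the same scale. Both genes thus moved in the same direction in all 8 cultures as coded. The value of KO culture 4 rests on the library labelled KO 24 h replicate 4, whose Y-linked reads went against its code. Marker genes of neural progenitors summed to 127 to 144 CPM in KO after 24 h, against 50.2 to 71.7 CPM in KO controls, and to 94.2 to 150 CPM in WT after 24 h, against 51.6 to 83.8 CPM in WT controls, with all 6 of these markers detected. Most of this sum was Vim, which averaged 108.8 ± 8.997 CPM in KO after 24 h, against 40.47 ± 7.338 CPM in KO controls, and 92.36 ± 26.92 CPM in WT after 24 h, against 32.13 ± 9.387 CPM in WT controls (SD, n = 4). Vim, an intermediate filament gene that other cells express too, was the 1 of the 6 called, and the median log2 fold change of the list was 0.33 in KO and 0.00 in WT. Their part in the changes of the members was not tested.

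**Figure D2:**
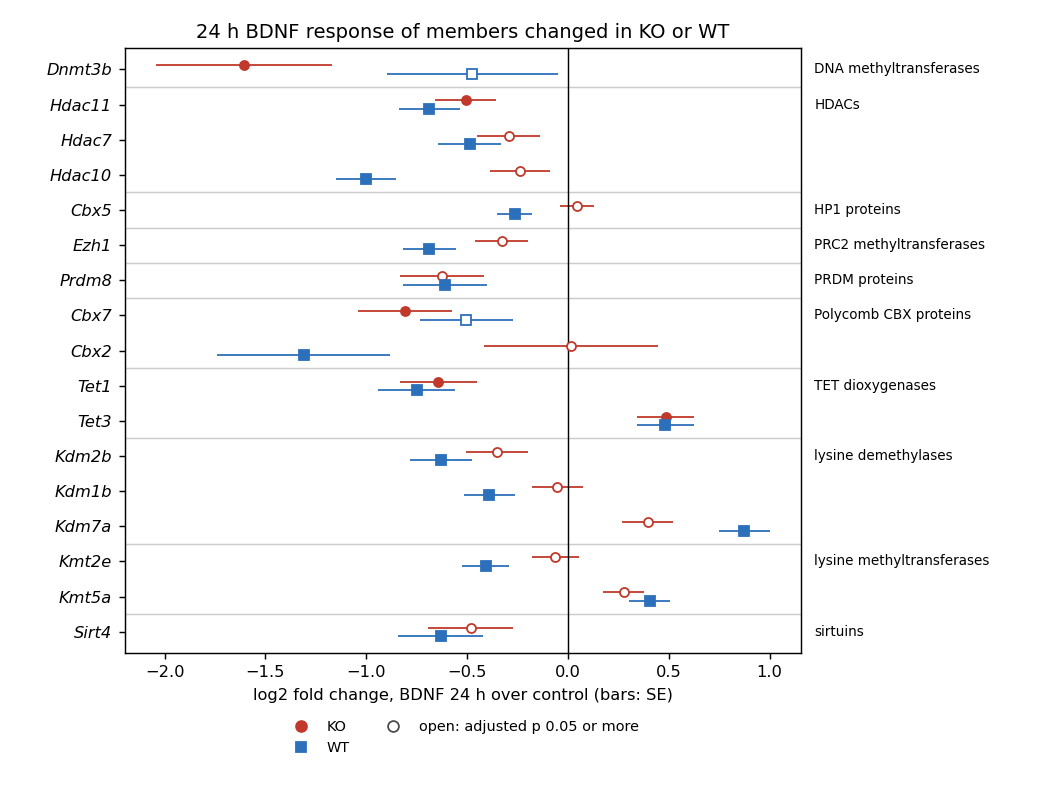
Log2 fold change after 24 h of BDNF over control (bars are SE) for the 17 members called in KO (red circles) or WT (blue squares), grouped by class; open symbols have an adjusted p of 0.05 or more. Tet1, Tet3 and Hdac11 are called in both genotypes, and the WT value lies farther from 0 for Hdac10 (-1.003 in WT) and Kdm7a (0.87 in WT).

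No difference between the genotypes in the 24 h response was called for a member by edgeR. In that contrast 0.0358% of all tested genes were called (0.0238% higher and 0.0119% lower in KO). Its unadjusted p was under 0.05 for 6 of 90 members and for 940 of all 16777 genes tested. DESeq2 called 1, Hdac10, with a log2 difference of 0.78 (adjusted p = 0.0385), where 0.36% of all its tested genes were called. The block by culture called 1, Setd7, which is 1.11% of the members tested against 1.78% of all tested genes. Hdac10 stood at 5.34, 6.42, 6.21 and 6.95 CPM in KO after 24 h, against 5.61, 7.61, 8.73 and 7.46 CPM in KO controls. The KO control and 24 h libraries, and the WT 24 h libraries, all lay below the WT controls. The difference in response of Hdac10 was 0.77 ± 0.21 by edgeR (adjusted p = 0.319), or 0.0623 as an adjusted p with the block. Setd7, a methyltransferase of histone H3 lysine and other proteins, gave log2 responses per culture of -0.13, -0.11, -0.21 and -0.21 in KO and 0.21, 0.22, 0.23 and 0.19 in WT. The KO and WT cultures as coded moved in opposite directions, with a difference of -0.37 ± 0.17 (adjusted p = 0.867), or -0.38 ± 0.08 with the block (adjusted p = 0.018). Ezh1 gave -0.39, -0.31, -0.39 and -0.26 in KO and -0.65, -0.69, -0.75 and -0.65 in WT, a difference that was not called.

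**Figure D3:**
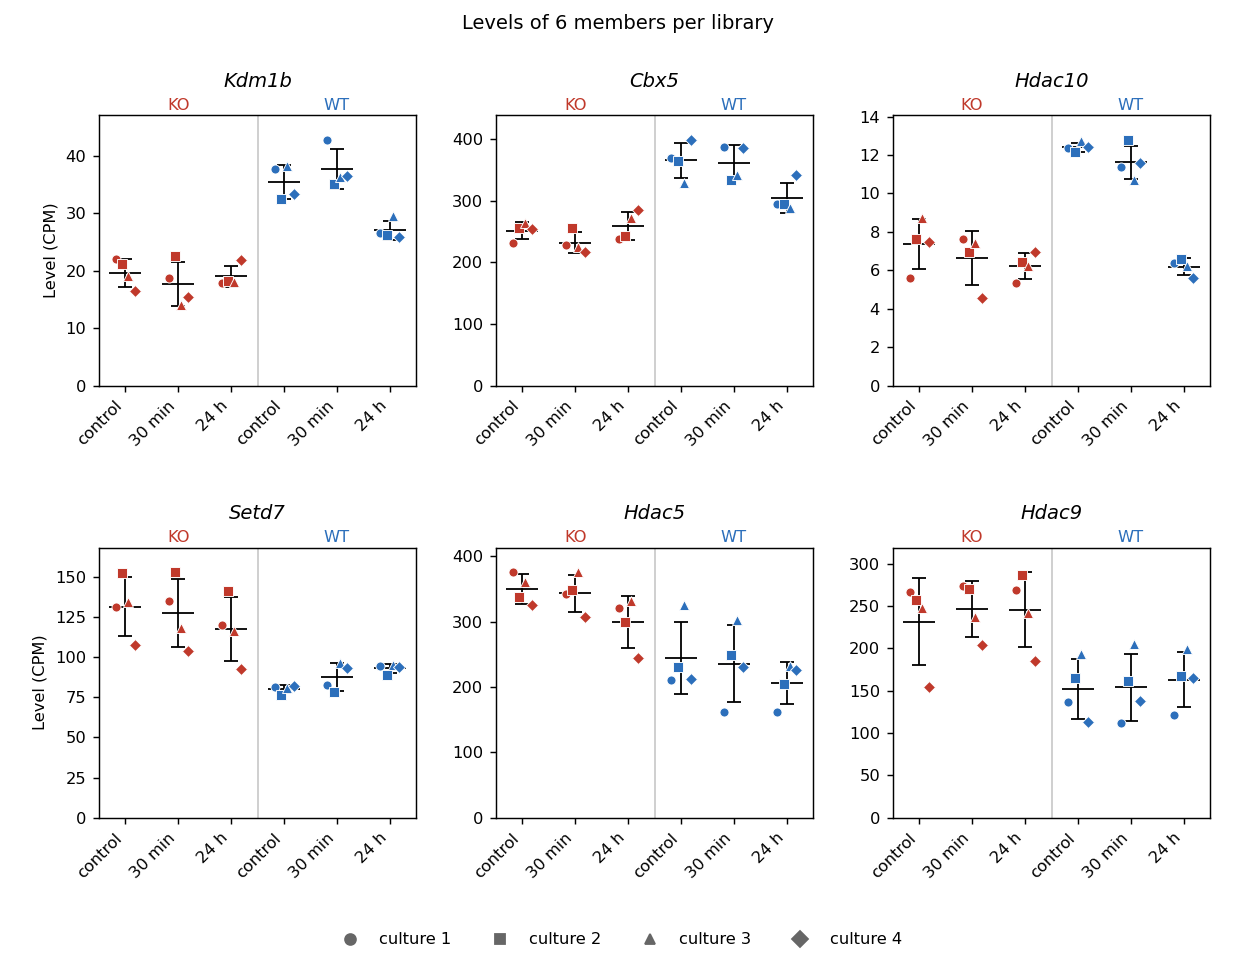
Levels in CPM of 6 members in each library (points, marker by culture), with the group mean and SD in black; KO groups are left of WT groups. Kdm1b, Cbx5 and Hdac10 are lower and Setd7 higher in all KO controls than in all WT controls, while Hdac9 in KO control culture 4 (155 CPM) lies within the WT range.

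In untreated neurons 25 members differed between KO and WT, 7 higher and 18 lower in KO, which is 27.8% of the members tested against 21.4% of all tested genes (11.3% higher and 10.1% lower). The median log2 fold change over the members tested was -0.14, against 0.03 over all tested genes. The lysine methyltransferases had 1 higher, 5 lower and 12 not called, and the demethylases 1 higher, 4 lower and 13 not called. Both PRC2 methyltransferases and 2 of 3 HP1 genes were lower. The deacetylases had 2 higher and 1 lower of 11, the sirtuins 2 higher of 7, the Polycomb CBX genes 1 higher and 1 lower of 5, and none of the 3 TET genes was called. Without WT control replicate 1, 2 or 3 or KO control replicate 1 or 3 the count was 12 to 16. The calls of Kdm1b, Cbx5, Hdac10, Kat6b, Kdm2b, Kdm4a, Dnmt1, Kmt5b, Setd7 and Sirt3 held in each fit without a single library. Without the libraries that stand apart 34 were called, the 25 among them, against 30.6% of all tested genes. These comparisons share the WT control libraries with the BDNF responses in WT.

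Among the erasers, Kdm1b, a demethylase of active H3 methylation also called LSD2, stood at 22.0, 21.1, 19.1 and 16.46 CPM in KO controls, against 37.6, 32.5, 38.2 and 33.3 CPM in WT controls. The groups did not overlap, and the log2 fold change was -0.85 ± 0.13 (adjusted p = 5.45e-05, edgeR). It was -0.94 ± 0.19 (adjusted p = 0.021) within KO cultures 2, 3 and 4 and WT cultures 3 and 4. These cultures form the second of 2 sets in the numbering of the library descriptions, and the first set holds 1 KO culture. Its gene (chromosome 13, 47043499 to 47085279, plus strand) shares 505 exon bases with Dek on the opposite strand. The demethylases Kdm2b (-0.66 ± 0.15), Kdm4a (-0.54 ± 0.14) and Kdm4b (-0.44 ± 0.14) were also lower in KO controls on the log2 scale. Hdac10 was lower by its log2 fold change of -0.76 ± 0.15 (adjusted p = 0.000787). Kdm7a was higher in KO, at 0.37 ± 0.13.

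Among the deacetylases of class IIa, Hdac5 stood at 376, 337, 360 and 326 CPM in KO controls, against 211, 230, 326 and 212 CPM in WT controls, a log2 fold change of 0.52 ± 0.16 (adjusted p = 0.0236, edgeR). WT replicate 3, high for its group, lay just below the lowest KO control. Hdac9 stood at 267, 257, 248 and 155 CPM in KO controls, against 137, 165, 194 and 113 CPM in WT controls, a log2 fold change of 0.61 ± 0.20 (adjusted p = 0.0335). The KO library of culture 4 lay among the WT controls, and leaving out KO culture 4 and replicate 3 of KO 30 min gave 0.76 ± 0.18. Hdac4, of the same class, had a log2 fold change of 0.45 ± 0.20 that was not called (adjusted p = 0.105), but without the libraries that stand apart it was 0.58 ± 0.18 (adjusted p = 0.0185). The sirtuins Sirt3, a mitochondrial deacetylase, and Sirt2, a mainly cytoplasmic one, were higher by 0.49 ± 0.11 and 0.28 ± 0.09 on the log2 scale.

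Among the writers, Setd7 (chromosome 3, 51515319 to 51560879, minus strand) stood at 131, 152, 134 and 108 CPM in KO controls, against 81.5, 76.2, 80.9 and 82.2 CPM in WT controls. The log2 fold change was 0.71 ± 0.12 (adjusted p = 0.000213, edgeR), with no overlap. The lower ones were Ehmt1, partner of Ehmt2 (-0.54 ± 0.15), Setd4 (-0.50 ± 0.17), Kmt5b (-0.42 ± 0.11), Kmt2e (-0.39 ± 0.12) and Kmt5c (-0.36 ± 0.13). Kmt5b and Kmt5c encode the enzymes that add further methyl groups where KMT5A placed the first. The acetyltransferase Kat6b stood at 46.2, 51.2, 42.0 and 34.1 CPM in KO controls, against 67.8, 71.2, 77.0 and 62.2 CPM in WT controls, a log2 fold change of -0.68 ± 0.14 (adjusted p = 0.00106). The maintenance DNA methyltransferase Dnmt1 stood at 71.2, 74.6, 55.2 and 47.2 CPM in KO controls, against 88.1, 92.1, 88.9 and 85.8 CPM in WT controls, a log2 fold change of -0.51 ± 0.13 (adjusted p = 0.00781). For both genes all KO controls lay below all WT controls.

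Among the Polycomb and HP1 genes, Ezh2 stood at 2.31, 2.81, 3.19 and 4.62 CPM in KO controls, against 6.19, 4.64, 5.75 and 4.49 CPM in WT controls. The groups overlapped through KO culture 4, and the log2 fold change was -0.72 ± 0.23 (adjusted p = 0.0296, edgeR). Markers of dividing cells, where Ezh2 is known to be high, summed to 41.3 to 57.6 CPM in KO controls and 45.2 to 53.3 CPM in WT controls. Most of this sum was Pcna, which averaged 35.8 ± 9.408 CPM in KO and 38.18 ± 3.618 CPM in WT controls (SD, n = 4). Mki67 averaged 0.51 CPM in KO and 0.75 CPM in WT controls, and Ccna2, the other way, 0.75 and 0.60 CPM. None of the 9 markers tested was called, with a median log2 fold change of -0.10. Their part in the Ezh2 difference was not tested. Ezh1 was lower in KO by its log2 fold change of -0.39 ± 0.13, and Cbx2 stood at 1.42, 1.35, 0.679 and 0.674 CPM in KO controls, all below the WT controls. Cbx5 stood at 231, 256, 263 and 254 CPM in KO controls, against 369, 365, 329 and 398 CPM in WT controls, a log2 fold change of -0.54 ± 0.09 (adjusted p = 0.000101). Cbx1 was lower by its log2 fold change of -0.28 ± 0.10, and Cbx6, which shares 563 exon bases with Npcd on the same strand, was higher at 0.36 ± 0.13. Prdm12 was also called lower, but on 2 counts summed over the KO controls against 82 over the WT controls, most of them in WT culture 2, so no fold is given.

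**Figure D4:**
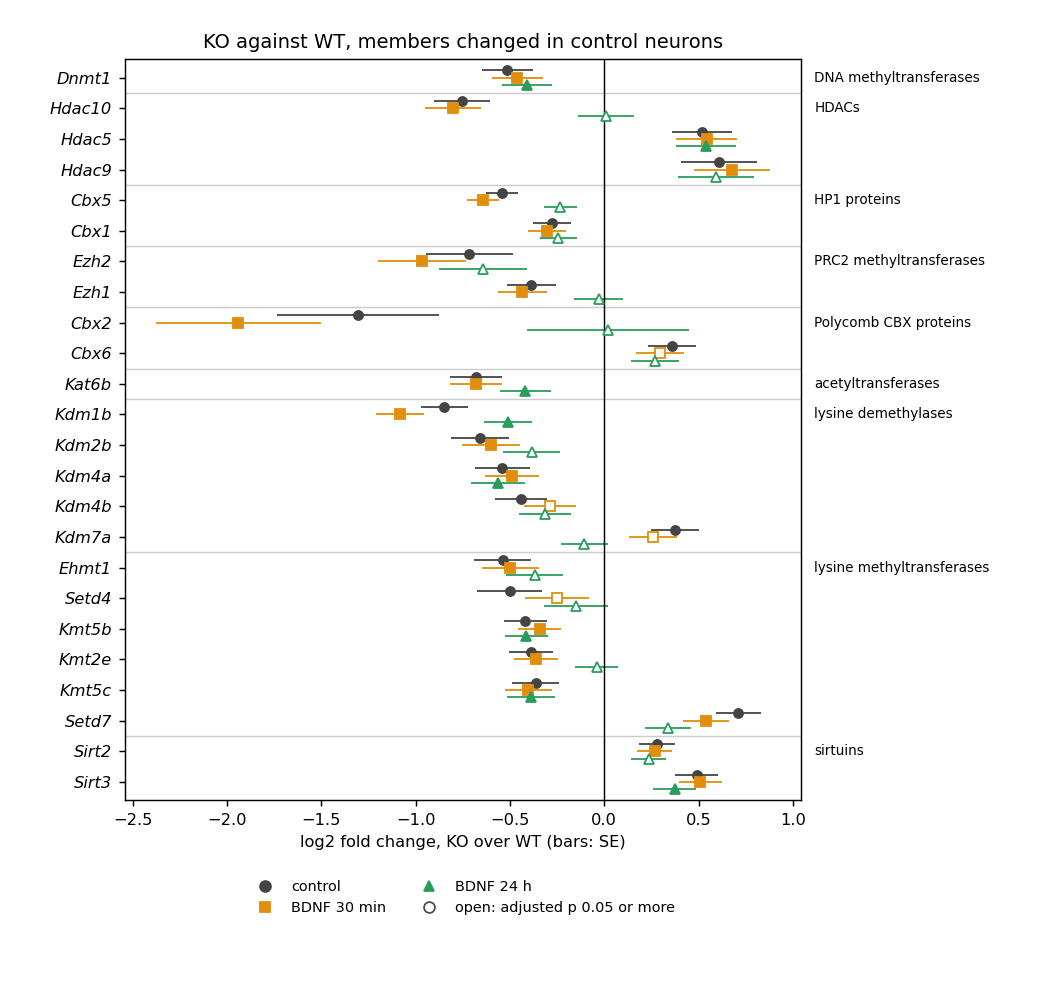
Log2 fold change of KO over WT (bars are SE) in control neurons (circles), after 30 min (squares) and after 24 h of BDNF (triangles) for 24 of the 25 members called in control neurons; open symbols have an adjusted p of 0.05 or more, and Prdm12 is left out because of its few counts. Kdm1b is called at all 3 times (-0.85, -1.08 and -0.51), and the 24 h values of Hdac10, Cbx2 and Ezh1 lie near 0.

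After 30 min of BDNF 29 members differed between KO and WT, 6 higher and 23 lower in KO, which is 32.2% of the members tested against 28.4% of all tested genes (14.6% higher and 13.8% lower). Kdm1b had the smallest adjusted p of the members, with 18.7, 22.5, 14.01 and 15.4 CPM in KO and 42.7, 35.0, 36.3 and 36.4 CPM in WT, a log2 fold change of -1.08 ± 0.13 (adjusted p = 2.89e-06, edgeR). Sirt1 stood at 11.1, 10.4, 13.5 and 7.32 CPM in KO and was lower by its log2 fold change of -0.72 ± 0.17 (adjusted p = 0.00322). Kdm6b (-0.53 ± 0.15) was also called at this time and not in control neurons, and its difference in response was not called. Setd1b (-0.56), Hdac7 (-0.48) and Kmt2c (-0.43) were lower at this time too, and Hdac4 was higher at 0.58 ± 0.20. A fit of the 30 min groups alone called 14 members, 16.1% of those tested against 17.4% of all genes in that fit. Without the libraries that stand apart 31 were called, 20 of the 29 among them, against 27.4% of all tested genes. The calls lost then included Ehmt1 (-0.23), Ezh1 (-0.20), Dnmt1 (-0.30), Kmt5c (-0.355), Kmt2e (-0.15), Setd1b (-0.16), Kmt2c (-0.13) and Prdm12, each given as the log2 fold change without them.

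After 24 h of BDNF 8 members differed, 2 higher and 6 lower in KO, which is 8.89% of the members tested against 13.3% of all tested genes (7.09% higher and 6.16% lower). They were Hdac5 (0.54 ± 0.16) and Sirt3 (0.37 ± 0.11), higher, and Kdm4a (-0.56 ± 0.14), Kdm1b (-0.51 ± 0.13), Kat6b (-0.42 ± 0.14), Kmt5b (-0.41 ± 0.11), Dnmt1 (-0.41 ± 0.13) and Kmt5c (-0.39 ± 0.13), lower, as log2 fold changes. Hdac10 stood at 0.01 ± 0.15 and Cbx2 at 0.02 ± 0.43 on this scale at 24 h. The count moved with single libraries, for which the share of all genes is not given. Without the library labelled KO 24 h replicate 4, 21 members were called (6 higher, 15 lower), the 8 among them. Leaving out KO culture 4 together with replicate 3 of KO 30 min, the count was 36, against 31.2% of all tested genes. The calls gained then included Setd7 (0.445 ± 0.08), Hdac9 (0.715 ± 0.18), Sirt1 (-0.49 ± 0.10) and Ezh2 (-0.83 ± 0.18) on the log2 scale. Without WT 24 h replicate 1, 2 or 3 or KO 24 h replicate 1, 2 or 3 it was 1 to 4, and the call of Kdm1b held in each fit without a single library.

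KO and WT also differed in markers of cell types and in their spread over the 2 sets. The first set held 1 KO and 2 WT cultures, and the second held 3 KO and 2 WT cultures. Of 10 neuron markers in KO against WT controls, the inhibitory markers Gad1 (1.03 ± 0.28) and Gad2 (1.19 ± 0.42) were higher, and Tubb3 (-0.73 ± 0.08), Rbfox3 (-0.70 ± 0.16) and the excitatory markers Slc17a7 (-0.74 ± 0.25) and Neurod6 (-0.88 ± 0.29) were lower on the log2 scale. The 8 astrocyte markers summed to 181 to 316 CPM in KO controls and 426 to 618 CPM in WT controls, with every marker detected. Most of that sum was Slc1a2, the 1 of the 8 called, which averaged 248.2 ± 60.44 CPM in KO controls and 470.2 ± 101.4 CPM in WT controls (SD, n = 4). Of 6 oligodendrocyte lineage markers tested, Mog was called lower in KO controls (-0.98 ± 0.20 on the log2 scale). Of 3 microglial markers tested, Csf1r was called higher (3.08 ± 0.77), at means of 1.095 CPM in KO and 0.1313 CPM in WT controls. The part of these cell type markers in the members' differences was not tested. Within the second set of libraries alone 1 of 90 members was called in control neurons (Kdm1b), against 3.45% of all tested genes, 5 were called after 30 min against 5.51%, and none after 24 h against 0.0634%. Those comparisons have 3 KO and 2 WT libraries a group. Of the 84 calls over all contrasts 8 held there and 76 were lost. All 84 kept their direction, but these libraries are part of the fit that gave the calls, so this is no separate support. A fit over all 24 libraries with the set as a covariate called 23 members in control neurons, against 20.7% of all tested genes. It called 28 after 30 min against 28.0%, and 6 after 24 h against 13.3%. All of these were among the calls made without the covariate.

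Some abundant members were called in no contrast of the fit over all 24 libraries, but several were with other settings. Dnmt3a had a log2 fold change of KO over WT of 0.20 ± 0.16, 0.20 ± 0.16 and 0.25 ± 0.16 in control neurons, at 30 min and at 24 h. Without the libraries that stand apart it was called higher at all 3 times (0.31 ± 0.09, 0.37 ± 0.11 and 0.37 ± 0.09, adjusted p of 0.0186, 0.0129 and 0.00514 by edgeR). Its 24 h response was -0.23 ± 0.16 in KO and -0.28 ± 0.16 in WT, called lower in both genotypes with the culture as a block. Hdac2 stood at 92.9, 107, 110 and 180 CPM in KO controls, against 167, 170, 145 and 156 CPM in WT controls, and was not called (-0.38 ± 0.22). Its 3 libraries of KO culture 4 were higher than those of the other KO cultures. Without the libraries that stand apart Hdac2 was called lower at all 3 times (-0.63 ± 0.10, -0.745 ± 0.12 and -0.62 ± 0.10, adjusted p of 0.000119, 0.000125 and 0.000136). Hdac3 stood at 108.6 to 118.7 CPM in KO and 88.4 to 105.9 CPM in WT after 30 min, and at 112.3 to 123.7 CPM in KO and 96.33 to 110.8 CPM in WT after 24 h. These groups did not overlap, yet the log2 fold changes of 0.18 ± 0.07 (adjusted p = 0.0668) and 0.16 ± 0.07 (adjusted p = 0.149) were not called. At 24 h it was 0.19 ± 0.065 without the libraries that stand apart (adjusted p = 0.0317), and at 30 min the adjusted p was 0.0433 with a filter of 1 CPM. Ep300 (-0.17 ± 0.12) and Crebbp (-0.11 ± 0.11) were not called in control neurons, and their SEs bound what could be seen.

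The demethylase genes on the sex chromosomes varied by culture. Kdm5d, on the Y chromosome, stood at 20.2 to 28.6 CPM in the libraries of KO cultures 1 and 3 and WT cultures 2 and 4. It was at 0 to 0.271 CPM in those of KO cultures 2 and 4 and WT cultures 1 and 3, except the library labelled KO 24 h replicate 4 at 15.5 CPM. That library also held 145 CPM of Xist. The X-linked partner Kdm5c stood at 90.5 to 119 CPM in the KO cultures with Kdm5d and 83.6 to 102 CPM in the WT cultures with it. Without Kdm5d in the control libraries, it stood at 140 to 152 CPM in KO culture 2, 78.1 to 96.1 CPM in KO culture 4 and 110 to 139 CPM in the WT cultures, so KO culture 4 lay lower than the others of its kind. Kdm6a, an X-linked demethylase of the Polycomb mark, stood at 18.1 to 20.9 CPM in the KO cultures with Kdm5d, against 24.4 to 26.8 CPM in the WT cultures with it. In the other cultures it stood at 22.8 to 29.2 CPM in KO, against 28.9 to 36.8 CPM in WT. Each genotype had 2 cultures with Kdm5d and 2 without. In the fit over all 24 libraries no comparison of Kdm5c, Kdm5d or Kdm6a was called. Without the libraries that stand apart Kdm6a was called lower in KO at 24 h (-0.55 ± 0.20, adjusted p = 0.0409, edgeR). At 24 h that fit keeps KO cultures 1 and 3 with Kdm5d and KO culture 2 without it. In WT it keeps 2 cultures with Kdm5d and 2 without. The part of this imbalance in the Kdm6a call was not tested.

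**Figure D5:**
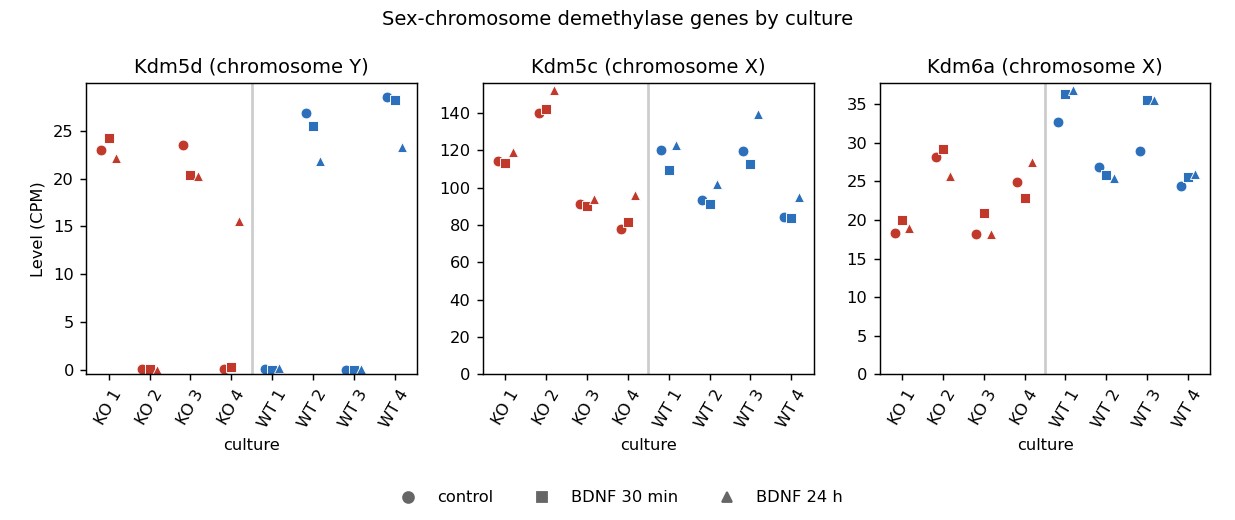
Levels in CPM of Kdm5d, Kdm5c and Kdm6a in each culture (KO cultures left, WT cultures right), with the marker showing the treatment. Kdm5d is at 20.2 to 28.6 CPM in 4 cultures and near 0 in the others, apart from the 24 h library of KO culture 4 at 15.5 CPM.

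Other genes of the same machinery were listed for comparison, 108 in all, of which 106 were tested. In KO against WT 9 were higher and 10 lower in control neurons (17.9% of those tested), 12 and 14 after 30 min (24.5%), and 4 and 6 after 24 h (9.43%). After 24 h of BDNF 4 were higher and 1 lower in KO (4.72%), and 11 higher and 8 lower in WT (17.9%). Each share lies below that of all tested genes in the same comparison. Around PRC2, Jarid2, which helps recruit the complex, was higher in KO controls (0.47 ± 0.13 on the log2 scale). The histone binding subunit gene Rbbp7 rose after 24 h by 0.54 ± 0.09 in KO and 0.65 ± 0.09 in WT. Around PRC1, Pcgf2 fell after 24 h by 0.29 ± 0.09 in KO and 0.45 ± 0.09 in WT, and Bcor was higher in KO controls (0.53 ± 0.16). Rnf2, which encodes a catalytic RING subunit of PRC1, was lower in KO at all 3 times (-0.75 ± 0.15, -0.93 ± 0.15 and -0.75 ± 0.15), and Pcgf3 was lower in KO controls (-0.24 ± 0.07). The largest called values in KO against WT controls were those of the demethylase Hr, with a log2 fold change of -1.84 ± 0.30 (adjusted p = 0.000118, edgeR), and of Pcgf5, a PCGF subunit of variant PRC1, with 1.502 ± 0.21 (adjusted p = 2.86e-05). After 24 h of BDNF in WT the log2 fold change was -1.09 ± 0.29 for Hr and 0.88 ± 0.21 for Pcgf5. The arginine methyltransferase Prmt8 was higher in KO under all 3 conditions (0.69, 0.66 and 0.71).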

How the data were processed

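The authors deposited raw counts of reads per gene, whole numbers with 1 column per library and no normalisation. Per the labels' protocols the RNA was polyadenylated and the kit stranded. The submitters' processing notes name the aligner STAR 2.7.9a, the build mm10, and edgeR 3.40.2, DESeq2 1.38.3 and limma 3.54.2. How reads were counted, with which strand setting and annotation, is not given in the sources used. GENCODE genes on mm10 gave a symbol to 45229 genes.

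Here the counts of 16777 genes kept by filterByExpr were fitted over all 24 libraries, 1 mean a group, in edgeR 4.0.16 (R 4.3.3) with TMM factors of 0.824 to 1.07. The quasi-likelihood model left 18 residual degrees of freedom, and the biological variation was 23.5%. SE is the log2 fold change over the square root of F. For log2 CPM a prior count of 2 was added. DESeq2 1.42.0 was the other tool.

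A code in the descriptions names the culture. Deviations from group means correlated at 0.046 to 0.462 within a culture, over 0.1 in 22 of 24 pairs. Pairs from different cultures were not correlated, so these values alone do not show that the code pairs libraries. The code was used as the block within a genotype, and blocked values are given where they change a call. The library labelled KO 24 h replicate 4 was kept in KO culture 4, although its Y-linked gene Ddx3y stood at 66.27 CPM. The control and 30 min libraries of that code had 0.1925 and 0.9036 CPM. Between genotypes only a number is shared.

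The members and lists were chosen with earlier results of these data known. Members picked for a look at each library were up to 6 rises and 6 falls a contrast (adjusted p under 0.05, mean of at least 1 CPM). Fixed members such as Cbx8, Ezh1, Kdm5d and Hdac9 were added. Values per library are printed for part of them, and the others appear as fold changes or ranges. Correlations are given for the 5 genes most like Cbx8. Values of Hdac2, Dnmt3b and Prdm12, and the responses of Setd7, were added after they were seen. Promoters are RefSeq sequences on GRCm38.p6. Values of 1 member are not reported here, although it is in the counts of members.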

Additional observations from a re-analysis of the deposited data

Results flagged for a closer look

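The 34 members picked for a look at each library were searched for single libraries far from the other 3 of their group. In 11 of 204 groups the gap of the extreme library to its nearest neighbour exceeded the critical share of the group's range in Dixon's test, where chance gives about 1 in 20. Of these, 5 were in KO culture 4: Dnmt3a was low at 269.8 CPM after 30 min (others 456.2 to 471.6) and at 265.6 CPM after 24 h (others 371.5 to 383.2), Hdac9 low in control at 154.9 CPM (others 248.1 to 267), Sirt2 low after 30 min at 55.16 CPM (others 67.07 to 68.38), and Kdm1b high at 21.79 CPM in the library labelled KO 24 h replicate 4 (others 17.91 to 18.24). In KO culture 3, Kdm2b was low after 24 h at 28.2 CPM (others 33.07 to 33.55) and Kmt5c low after 30 min at 8.963 CPM (others 9.984 to 10.09). In WT, Cbx8 was high in replicate 4 after 30 min at 42.87 CPM (others 28.19 to 29.9), Crebbp high in replicate 3 after 24 h at 61.7 CPM (others 48.85 to 49.98), Hdac5 high in control replicate 3 at 325.8 CPM (others 211.3 to 229.9), and Kmt5a low in control replicate 4 at 31.52 CPM (others 41.31 to 42.28). The share of mitochondrial counts was highest in KO culture 4, and its part in these values was not tested.

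The response of Cbx8 to 30 min of BDNF differed between the genotypes by -1.2528 on the log2 scale, KO minus WT (adjusted p = 0.0198, edgeR interaction of genotype and treatment). Per culture it was -0.28 to 0.26 in KO and 0.79 to 1.65 in WT.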

How the results depend on the processing

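The 84 calls of a member in a contrast were refitted under 9 other settings. Of 751 values 603 stayed past the threshold, 148 lost the call and 0 changed direction. Of 680 fits without a single library 448 kept it, 232 lost it and 0 changed direction. All these fits reuse libraries that gave the calls, so a kept direction is no separate support. The fit of set 2 alone (KO cultures 2, 3 and 4, WT cultures 3 and 4) was added after seeing the data. The counts of members called by edgeR that moved with a setting follow, with the share of all tested genes called in brackets. With the culture as a replicate block, 15 were called in KO at 24 h (16.9%), 2 in WT at 30 min (0.584%) and 27 in WT at 24 h (31.6%). The block also called 1 in the difference at 24 h (1.78%), and DESeq2 called 1 in that difference (0.36%). For KO against WT the block by replicate number, shared only as a number, moved no count by over 1.5 times. In fits of the compared groups alone the count was 2 for KO at 24 h, where 552 of all 15602 tested genes were called. It was 25 for WT at 24 h (32.3%), which is 28.7% of the members tested. For KO against WT at 30 min it was 14 (17.4%), and for the difference at 30 min 0 (0.0246%). RLE factors gave 3 for KO at 24 h (5.56%). With no filter 0 were called for KO at 24 h (2.26%) and 4 for KO against WT at 24 h (5.89%). Leaving out KO culture 4 plus replicate 3 of KO 30 min gave 6 for KO at 24 h (9.43%) and 25 for WT at 24 h (32.0%). It gave 34 for KO against WT in control neurons (30.6%), 36 at 24 h (31.2%) and 0 for the difference at 30 min (0.046%). In set 2 alone the counts were 0 for KO at 24 h (0.109%), 0 for WT at 30 min (0.144%) and 2 for WT at 24 h (1.37%). For KO against WT they were 1 in control neurons (3.45%), 5 at 30 min (5.51%) and 0 at 24 h (0.0634%). The count was 0 for the difference at 30 min (0.0%). Leaving out 1 library at a time gave ranges of 0 to 3 (KO at 24 h), 9 to 12 (WT at 24 h) and 0 to 1 (difference at 30 min). For KO against WT the ranges were 12 to 21 (control), 20 to 30 (30 min) and 1 to 21 (24 h). The share of all genes is not given for fits without a single library, so their counts, here and above, are not set against it. The cause was not tested. Depth limits the rarest members, such as Cbx2, Dnmt3b and Prdm12.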
